A study of Homo sapiens with 26 samples.

Results

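The 500 stretches of the human genome in which FOXA1 peaks lay most densely after FOXA1 was expressed in fibroblasts are described here. Chromosomes 1 to 22 were divided into non-overlapping windows of 100 kb from position 0, and the midpoints of the FOXA1 peaks in each window were counted. The 500 windows with the highest counts, with ties taken by chromosome number and then by start, were called the dense windows. They were 500 of 28823 windows, of which 26901 had at least 50% known bases and served as the comparison. All 500 dense windows consisted of known bases only.

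The peaks came from ChIP-seq, in which DNA bound by a protein is precipitated with an antibody and sequenced. The antibody was directed against HALO, a protein tag carried by each factor, and the cells were formaldehyde-fixed BJ fibroblasts, an established human foreskin line. The constructs were FOXA1, 3 FOXA1 variants that the labels name FOXA1dbd, FOXA1nhaa and FOXA1rraa without describing their changes, and HNF4A, each expressed ectopically for 48 hours. All of them were therefore factors supplied from outside in a cell line, and no list of peaks without such a factor was analysed here. The labels list 2 ChIP libraries per construct, but each construct had 1 peak list in hg19 coordinates, so there was no replicate error, no difference was tested and no p-value is given. The peak lists hold no expression values, so the fibroblast label could not be checked against marker genes, and their read depth is unknown.

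FOXA1 is a forkhead transcription factor, called a pioneer factor because it can bind its sites on DNA wrapped around nucleosomes, before other factors do. Its winged-helix DNA-binding domain recognises short A- and T-rich sequences, of which TGTTTAC and TATTTAC are forms of the forkhead core. FOXA1 acts in liver, breast, prostate and other endoderm-derived or hormone-responsive tissues, and skin fibroblasts are not among its usual sites of action. HNF4A, a nuclear receptor that acts beside FOXA proteins in hepatocytes, recognises a different sequence.

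Sequences of single FOXA1 peaks are given first, to show forkhead cores in their surroundings. In each of the 5 densest windows, the highest-scoring FOXA1 peak with a forkhead core in its central 200 bp is shown as 60 bases of the plus strand of hg19 (GRCh37) around 1 core. Capitals mark forkhead cores, in either orientation (GTAAACA and GTAAATA are the cores read from the other strand). All 5 peaks lay in introns. The peak of rank 1 was in NEGR1, 14325 bp from the nearest protein-coding transcription start, at chr1:72552201-72552260. That of rank 2 was in ASCC3, 194983 bp from a start, at chr6:101134159-101134218. That of rank 3 was in ASCC3, 42418 bp from a start, at chr6:101286814-101286873. That of rank 4 was in COL5A2, 91763 bp from a start, at chr2:189930801-189930860. That of rank 5 was in NEGR1, 84698 bp from a start, at chr1:72651277-72651336.
NEGR1 intron, rank 1: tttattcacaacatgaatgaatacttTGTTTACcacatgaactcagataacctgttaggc
ASCC3 intron, rank 2: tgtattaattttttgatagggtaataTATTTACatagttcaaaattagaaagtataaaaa
ASCC3 intron, rank 3: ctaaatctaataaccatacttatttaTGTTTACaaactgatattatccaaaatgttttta
COL5A2 intron, rank 4: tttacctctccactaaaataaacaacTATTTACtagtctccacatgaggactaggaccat
NEGR1 intron, rank 5: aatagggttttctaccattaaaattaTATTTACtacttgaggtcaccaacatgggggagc

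The authors' scores of these 5 peaks were 251, 659, 297, 506 and 406 in order of rank, and their widths 1080, 1209, 971, 510 and 1635 bp. FOXA1dbd peaks overlapped those of ranks 2, 3 and 4 and neither of the NEGR1 peaks. FOXA1nhaa overlapped all but that of rank 3, and HNF4A overlapped none of the 5.

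Further sequences were picked after their values were seen, because they represent extremes among the dense windows. The DDAH1 peak had the highest score (1035) of the dense-window peaks with a core, was overlapped by all 3 variants and lay in an intron at chr1:85993708-85993767. The ITGB1 peak (score 399) came from the window with the most FOXA1dbd peaks, was overlapped by FOXA1dbd and not by FOXA1nhaa, and lay in an intron at chr10:33217253-33217312. The ODR4 peak (score 527), at chr1:186363122-186363181, had its midpoint in an exon and was overlapped by HNF4A and by all 3 variants. The final 2 peaks had 4 cores in their central 200 bp, the most of any peak in the dense windows. That in an intron of RFX7, at chr15:56460470-56460669, scored 276 and was overlapped by all 3 variants. That in an intron of CAST, at chr5:95999903-96000102, scored 111 and was overlapped by none of the other lists. Where 2 cores share bases, as in RFX7, the capitals run on.
DDAH1 intron: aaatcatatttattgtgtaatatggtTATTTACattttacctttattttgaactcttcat
ITGB1 intron: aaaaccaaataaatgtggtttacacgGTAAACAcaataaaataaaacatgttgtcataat
ODR4: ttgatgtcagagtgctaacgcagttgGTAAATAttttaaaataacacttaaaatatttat
RFX7 intron: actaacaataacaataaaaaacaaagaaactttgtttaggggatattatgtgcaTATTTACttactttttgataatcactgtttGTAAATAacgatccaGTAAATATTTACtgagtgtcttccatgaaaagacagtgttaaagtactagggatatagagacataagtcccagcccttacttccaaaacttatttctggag
CAST intron: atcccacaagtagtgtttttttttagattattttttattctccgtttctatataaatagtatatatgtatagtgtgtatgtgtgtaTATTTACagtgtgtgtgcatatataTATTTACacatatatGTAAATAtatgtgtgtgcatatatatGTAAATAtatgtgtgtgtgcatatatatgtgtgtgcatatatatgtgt

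Carrying a core was the exception among these peaks. In the dense windows 18.1% (17.4 to 18.7) of the FOXA1 peaks had TGTTTAC or TATTTAC on either strand in the central 200 bp around the midpoint, and 18.2% (18.0 to 18.4) of the FOXA1 peaks elsewhere did. The brackets are 95% Wilson intervals, here and below, and cover counting error over peaks only. Over all FOXA1 peaks the share was 18.2%. Of all 200 bp tiles of the genome 7.28% held a core, and of all tiles of the dense windows 9.10% did. Of the tiles of the dense windows that lay off FOXA1 peaks 8.08% did. Peaks of the dense windows thus matched other FOXA1 peaks in this share within counting error. It ranged from 0% in 1 window through a median of 17.9% to 44%. In all, 11829 peaks had no core, 2336 had 1, 249 had 2, 20 had 3 and 2 had 4. The windows themselves held more cores, with a median of 0.50 per kb against 0.40 per kb over all windows.

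Other short motifs were counted in the same way, on both strands. The AP-1 core TGACTCA, the site of FOS and JUN proteins, was in 5.35% (5.00 to 5.73) of the FOXA1 peaks in dense windows and in 8.26% (8.11 to 8.40) of those elsewhere, against 7.98% over all FOXA1 peaks and 3.07% of all tiles. The share was lower in dense windows within each of 5 classes of equal size by score, from 4.83% against 8.07% in the lowest to 5.97% against 8.13% in the highest. It was also lower among peaks in the bodies of protein-coding genes, at 5.14% (4.78 to 5.53) against 7.42% (7.25 to 7.59). Of all tiles of the dense windows 2.80% held this core, and of those off FOXA1 peaks 2.49% did. The AP-1 core was thus the motif whose share departed most between dense windows and the rest, and it departed downwards.

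The TEAD core GGAATG, the site of the YAP-associated TEAD factors, was in 10.4% (9.96 to 11) of the peaks in dense windows and 12.1% (11.9 to 12.3) elsewhere, against 12% over all FOXA1 peaks and 10.6% of all tiles. The reversed letters of the forkhead core, CATTTGT and CATTTAT, served as a control of like composition and were in 19.8% (19.2 to 20.5) of the peaks in dense windows and 19.7% elsewhere, against 19.8% over all FOXA1 peaks and 12.3% of tiles. These letters can overlap forkhead cores. The HNF4 core CAAAGTCCA was in 0.256% (0.186 to 0.353) and 0.263%, against 0.262% over all FOXA1 peaks and 0.253% of tiles. A match of letters is a description and was not tested as a binding site.

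The counts that chose the windows are given as a description. A dense window held 24 to 55 FOXA1 peaks, with a median of 28 and a mean of 28.9. All windows had a median of 4 and a mean of 5.70, and 7411 of them held no FOXA1 peak. The dense windows held 14436 of the 153247 FOXA1 peaks on these chromosomes (9.42%) in 1.86% of the known bases. FOXA1 peaks covered 11.5% of their bases, from 7154 to 24798 bp per window, and 2.01% of all known bases. The edge of the group was a tie, since 94 windows had 24 peaks, of which 59 were dense windows and 35 were not, and 109 windows had 23. The last window to be chosen, at RBM33 on chromosome 7, had 24 FOXA1, 6 FOXA1dbd, 13 FOXA1nhaa and 1 HNF4A peaks. The first 3 to miss, all on chromosome 8 at ASPH, STK3 and EXT1, also had 24 FOXA1 peaks, with 6, 1 and 3 FOXA1dbd, 20, 8 and 7 FOXA1nhaa, and 3, 0 and 5 HNF4A peaks.

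Spacing, width and score are taken from the list that chose the windows and are given as a description, the spacing following from the choice itself. The median distance between midpoints of neighbouring FOXA1 peaks was 2124 bp in dense windows and 5240 bp elsewhere. The median width was 335 bp against 298 bp, and the median score was 136 against 124. Some rows of the list carried the same peak name and may be pieces of 1 peak, which held for 14.8% of the rows in dense windows and 7.38% elsewhere. With such rows joined, the windows still held 19 to 49 FOXA1 peaks each (median 26), and 455 of the 500 would again have been chosen.

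The authors' down-sampled FOXA1 list, 37683 rows of the full list on these chromosomes, allowed the windows to be chosen on 1 set of rows and counted on another. Of the 500 windows densest in the down-sampled rows, 244 were dense windows by the full list. In these 500, the remaining FOXA1 rows averaged 15.9 per window against 4.29 over all windows, which was 3.69-fold, and the down-sampled rows that chose them were 6.06-fold. Both sets are rows of the same list and most of these windows were not dense windows by the full list, so the values are a description of the list.

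**Figure D1:**
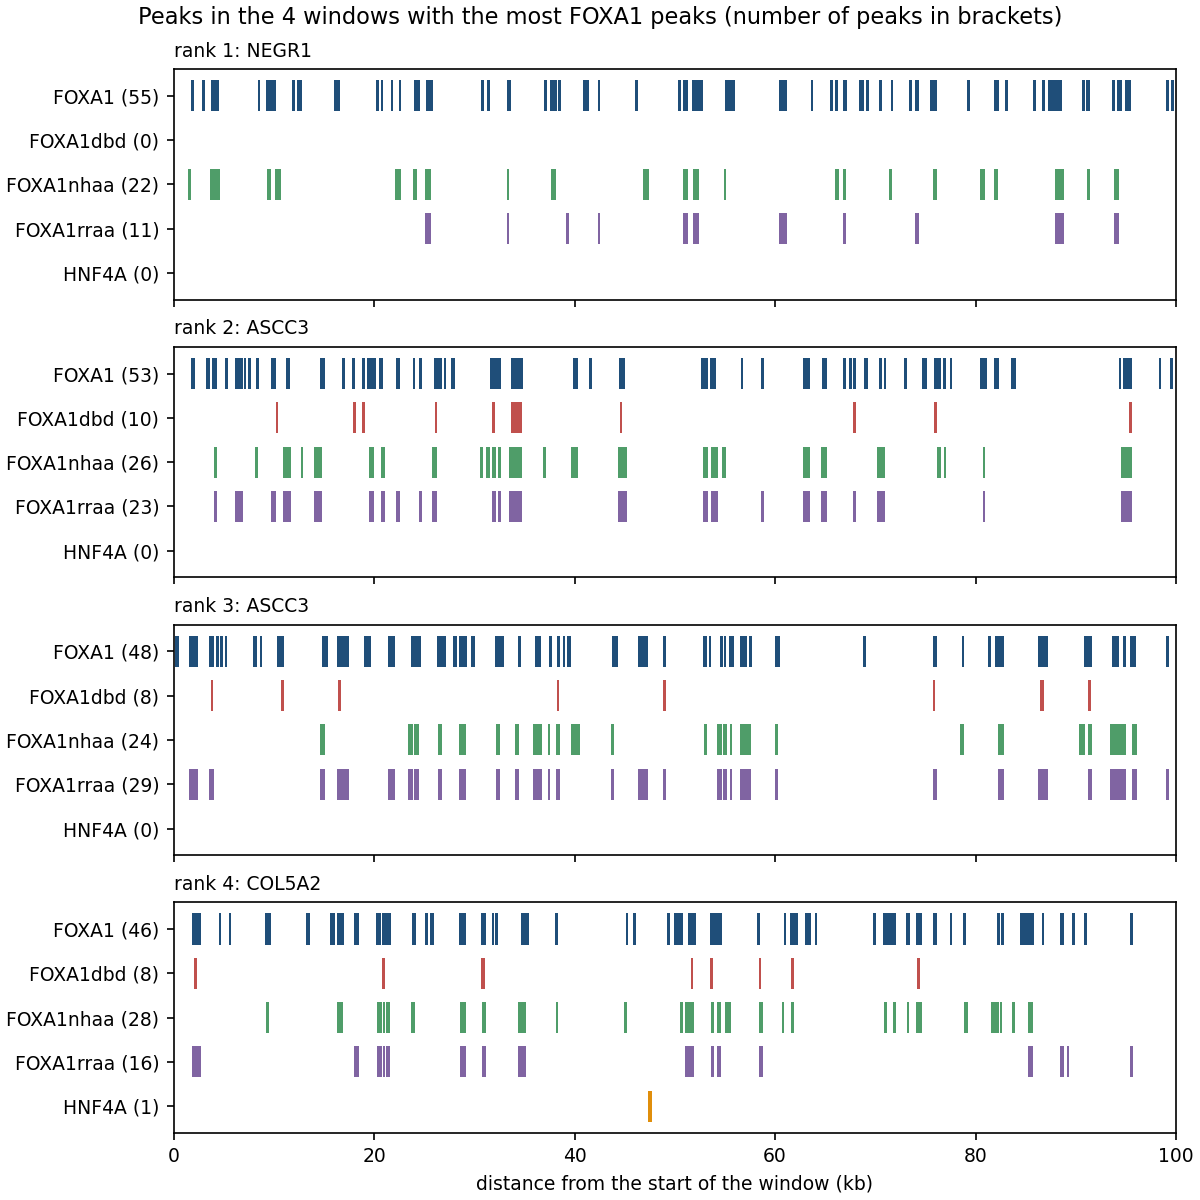
Positions of the peaks of each list in the 4 densest windows, as distance in kb from the window's start (horizontal axis), with 1 row per list and the number of peaks in brackets. Each mark is 1 peak drawn to its width, with a minimum drawn width for narrow ones. FOXA1 peaks were spread over each window, FOXA1dbd was listed with 0 peaks in the NEGR1 window and 10 in the ASCC3 window of rank 2, and HNF4A had 1 peak, in COL5A2.

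The densest window of all, chr1:72500001-72600000, lay in NEGR1, which encodes a neuronal adhesion molecule of the immunoglobulin superfamily. It held 55 FOXA1, 22 FOXA1nhaa, 11 FOXA1rraa, 0 FOXA1dbd and 0 HNF4A peaks. The windows of ranks 2 and 3 were neighbours inside ASCC3, a helicase of the activating signal cointegrator complex. They held 53 and 48 FOXA1, 10 and 8 FOXA1dbd, 26 and 24 FOXA1nhaa and no HNF4A peaks. Rank 4 fell in COL5A2, a chain of the fibrillar collagen V, with 46 FOXA1, 8 FOXA1dbd, 28 FOXA1nhaa and 1 HNF4A peak. Rank 5 was again NEGR1, with 45 FOXA1, 3 FOXA1dbd, 21 FOXA1nhaa and 0 HNF4A peaks. With similar FOXA1 counts, these windows thus differed in FOXA1dbd from 0 to 10.

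Ranks 6 to 15 held 45 to 41 FOXA1 peaks, and 9 of these 10 windows are described. They lay at NIPBL, the cohesin loader; MPC2, a mitochondrial pyruvate carrier, with DCAF6; PDLIM5, an actin-associated scaffold; DST, a cytoskeletal linker; CBLB, a ubiquitin ligase; ASPH, an aspartyl hydroxylase; LAMTOR3, DNAJB14 and the histone variant gene H2AZ1; SENP6, a SUMO protease; and HERC4 with MYPN. Among these 9 windows FOXA1dbd ran from 2 peaks at PDLIM5 to 10 at DST and at HERC4 with MYPN. FOXA1nhaa ran from 16 peaks at LAMTOR3 to 29 at DST, and HNF4A from 1 to 5. In 4 of the 15 densest windows HNF4A had no peak, and these were the pairs at NEGR1 and ASCC3.

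The other constructs' peak lists were not used to choose the windows, but 2 of them share material with the FOXA1 list. Of the FOXA1dbd peaks, 95.8% lay wholly inside a FOXA1 peak, against 13.9% of the FOXA1nhaa peaks. The FOXA1rraa list held 22823 rows of the FOXA1 list and 41016 rows of the FOXA1nhaa list among its 70442. With the FOXA1 rows left out, most remaining FOXA1rraa rows were FOXA1nhaa rows, so values of that reduced list largely repeat FOXA1nhaa. The 6603 FOXA1rraa rows with a prefix of neither list had 218, or 3.30%, in dense windows. A high density of FOXA1dbd or FOXA1rraa where FOXA1 was dense is therefore no independent measurement. No row of the FOXA1nhaa or HNF4A list carried the name prefix of the FOXA1 list.

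FOXA1nhaa averaged 16.6 peaks per dense window (3 to 30, median 16) against 3.89 over all windows, a 4.25-fold difference. FOXA1dbd averaged 4.75 (0 to 18, median 4) against 1.07, which was 4.45-fold. FOXA1rraa averaged 13.5 (5 to 29, median 13) against 2.62, or 5.15-fold, and without the rows of the FOXA1 list 9.41 against 1.77, or 5.32-fold. HNF4A averaged 1.85 (0 to 10, median 1) against 1.41, or 1.31-fold. These are means over windows of unlike GC content, and the values within classes of GC content are given further on.

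As shares of each list, 7.90% (7.74 to 8.07) of FOXA1nhaa peaks and 8.28% (7.96 to 8.60) of FOXA1dbd peaks lay in the dense windows. The share was 9.56% (9.35 to 9.78) for FOXA1rraa and 9.88% (9.62 to 10.2) for FOXA1rraa without rows of the FOXA1 list. The latter were mostly FOXA1nhaa rows, and of the 6603 FOXA1rraa rows from neither list 3.30% lay there. For HNF4A it was 2.44% (2.29 to 2.60). The windows make up 1.86% of the known bases.

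Nearly every dense window was rich in FOXA1nhaa. A count of at least 2 times the mean over all windows was found in 496 of 500 dense windows for FOXA1nhaa, where 18.1% of all windows reached it. For FOXA1dbd 415 did, against 14.5% of all windows. For FOXA1rraa 497 did, against 16.6%, and without rows of the FOXA1 list 490, against 18.5%. For HNF4A it was 151 windows, or 30.2%, against 20.7%. At 3 times the mean, 440 dense windows were counted for FOXA1nhaa, against 6.21% of all windows. For FOXA1dbd there were 320, against 7.63%. For FOXA1rraa there were 477, against 8.9%, and without rows of the FOXA1 list 444, against 8.2%. For HNF4A there were 42, or 8.40%, against 8.8%. The share of dense windows rich in HNF4A was therefore above the background at the lower level and near it at the higher one. The next 500 windows by FOXA1 count were similar at 2 times the mean for FOXA1nhaa (472), FOXA1rraa (487) and HNF4A (131), and lower for FOXA1dbd (333). At 3 times the mean they numbered 322 for FOXA1nhaa, 245 for FOXA1dbd, 404 for FOXA1rraa and 45 for HNF4A.

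**Figure D2:**
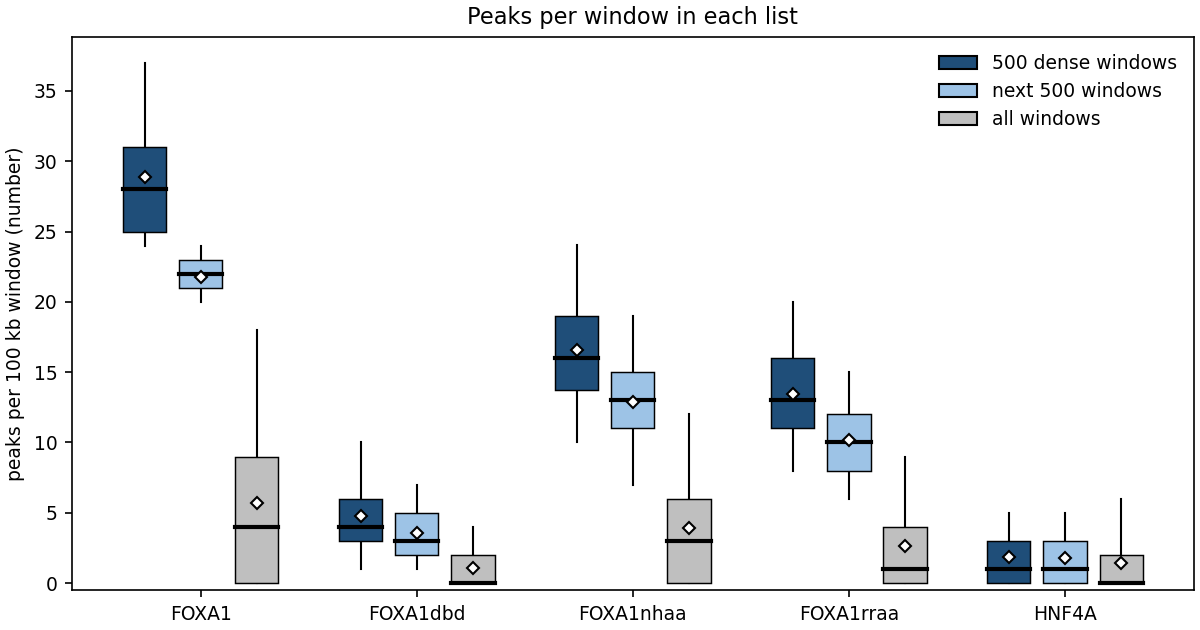
Peaks per 100 kb window (vertical axis) of each list, in the 500 dense windows, the next 500 windows by FOXA1 count and all 26901 windows; boxes span the quartiles, lines the 5th to 95th percentiles, bars are medians and diamonds means. FOXA1 chose the windows; FOXA1nhaa means were 16.6, 12.9 and 3.89, and HNF4A means 1.85, 1.77 and 1.41.

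No dense window was without FOXA1nhaa, where 26% of all windows were, and the lowest count was 3. None was without FOXA1rraa, where 36.9% of all windows were, or 43.6% when rows of the FOXA1 list were left out. No FOXA1dbd peak was found in 5 dense windows, against 50.3% of all windows. These were ranks 1 and 263 in NEGR1, rank 35 at FAP, IFIH1 and GCA, rank 71 in COL11A1 and rank 445 in ADGRL2. They held 55, 27, 36, 33 and 24 FOXA1 peaks and 22, 9, 15, 13 and 13 FOXA1nhaa peaks. No HNF4A peak was found in 127 dense windows, against 51.5% of all windows. The 5 of these with the most FOXA1 peaks were the windows of ranks 1, 2, 3 and 5 and that of rank 21 in ZFAND3, with 38 FOXA1 and 10 FOXA1dbd peaks.

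Among the 5 windows richest in FOXA1dbd were those at ITGB1 (18 peaks), a beta integrin; RTN4 (15), an endoplasmic reticulum protein; RND3 (14); and CRIM1 (13). Their FOXA1 counts were 34, 36, 27 and 35. Those richest in FOXA1nhaa lay at CDK6 (30), a cell cycle kinase; DST (29); MBNL1 (29), a splicing regulator; and COL5A2 (29 and 28). Those richest in HNF4A lay at P4HA1 with NUDT13 and ECD (10), PTPN1 (9), APBB2 (8), SKIDA1 with MLLT10 (8) and PTGR3 with TSHZ1 (8). Their FOXA1 counts were 35, 25, 25, 25 and 25, where the lower quartile of all dense windows was 25.

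Across the 500 dense windows the rank correlation of the FOXA1 count with the FOXA1nhaa count was 0.45, with FOXA1dbd 0.24 and with HNF4A 0.02. Across all 26901 windows the values were 0.89, 0.73 and 0.38. These are descriptions across windows of the same lists, and the dense windows span only the upper end of FOXA1 counts.

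Overlap between single peaks was counted next. A FOXA1nhaa peak overlapped 46.8% (46.0 to 47.6) of the FOXA1 peaks in dense windows and 39.4% (39.1 to 39.7) of those elsewhere, against 40.1% of all FOXA1 peaks. In the next 500 windows by FOXA1 count it was 45.2%. FOXA1dbd did the opposite, with 15.8% (15.2 to 16.4) in dense windows and 17.7% (17.5 to 17.9) elsewhere, against 17.5% of all. For FOXA1rraa the shares were 44.9% (44.1 to 45.7) and 39.6% (39.4 to 39.9), against 40.1% of all, and without rows of the FOXA1 list 30.8% (30.1 to 31.6) and 24.6% (24.4 to 24.9), against 25.2%. For HNF4A they were 1.25% (1.08 to 1.45) and 1.74% (1.68 to 1.81), against 1.7%.

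The share overlapped rose with the score of the FOXA1 peak, so it was also taken within 5 classes of equal size by score. For FOXA1nhaa the share was higher in dense windows in every class, from 30.8% (29.0 to 32.6) against 25.2% (24.7 to 25.7) in the lowest to 68.1% (66.5 to 69.6) against 62.5% (61.9 to 63.1) in the highest. For FOXA1dbd it was lower in the first 4 classes, from 6.69% (5.79 to 7.72) against 9.75% (9.41 to 10.1) in the lowest to 16.9% (15.6 to 18.2) against 19.8% (19.4 to 20.3) in the fourth. In the highest class, with 31.2% (29.7 to 32.8) against 32.0% (31.5 to 32.6), the intervals overlapped. FOXA1nhaa peaks numbered 16.6 per dense window and 3.89 per window over all windows, and their median width was 400 bp against 354 bp elsewhere. With midpoints within 200 bp of each other counted instead, the FOXA1nhaa share was 36.8% in dense windows and 33.4% elsewhere. The part of peak width, and of the density of the other list's peaks, in these differences was not tested.

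Single windows varied widely around these shares. The FOXA1nhaa share of a window's FOXA1 peaks ran from 11.1% to 76.7%, with a median of 46.2%, and the FOXA1dbd share from 0% to 52.9%, with a median of 15.4%. All 3 variants, FOXA1rraa being counted without rows of the FOXA1 list, overlapped 9.05% (8.60 to 9.53) of the FOXA1 peaks in dense windows and 8.25% (8.10 to 8.39) elsewhere. None of them overlapped 48.0% (47.2 to 48.8) and 53.3% (53.0 to 53.5).

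The forkhead core went with these overlaps in the same way inside and outside the dense windows. In dense windows it was in 21.7% (20 to 23.4) of the FOXA1 peaks that FOXA1dbd overlapped and in 17.4% (16.7 to 18.1) of the others. For FOXA1nhaa the order was turned, with 16.9% (16.1 to 17.8) of the overlapped and 19.1% (18.2 to 19.9) of the other peaks. Elsewhere the pairs were 21.1% and 17.6% for FOXA1dbd, and 17.3% and 18.8% for FOXA1nhaa. The overlapped peaks had the higher median score in both cases, 212 against 126 and 170 against 112 in dense windows.

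Peaks of the other lists that lay off FOXA1 peaks were counted separately. In dense windows 81.1% (80.3 to 82.0) of FOXA1nhaa peaks touched a FOXA1 peak, and elsewhere 56.5% (56.2 to 56.8). The FOXA1nhaa peaks that touched none numbered 3.12 per dense window and 1.62 per window over all windows, which was 1.93-fold. Even the FOXA1nhaa sites that FOXA1 was not called at were thus more frequent in these windows. FOXA1dbd peaks touched a FOXA1 peak in 99.6% of cases in dense windows and 95.9% elsewhere. Of the 1094 FOXA1dbd peaks that touched none, 9 lay in dense windows, or 0.823% (0.433 to 1.56). These were 0.018 per dense window and 0.0405 per window over all windows, or 0.44-fold, so FOXA1dbd went the other way from FOXA1nhaa.

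HNF4A peaks touched a FOXA1 peak in 18.7% (16.3 to 21.4) of cases in dense windows and in 6.51% (6.27 to 6.77) elsewhere. FOXA1 peaks covered 11.5% of the bases of dense windows and 2.01% of all known bases. A touch of at least 1 bp depends on the widths of both peaks, so the shares of peaks cannot be read against these shares of bases. The share of HNF4A peaks that would touch by placement alone was not calculated. The HNF4A peaks that touched no FOXA1 peak numbered 1.50 per dense window and 1.31 per window over all windows, or 1.15-fold. Within 1000 bp of a protein-coding transcription start lay 37.7% (34.6 to 40.8) of the HNF4A peaks in dense windows and 30.1% (29.7 to 30.6) of those elsewhere.

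GC content, which the choice did not use, was lower in the dense windows. Their median GC content was 37.3% (32.5% to 45.3%), and that of all windows 39.9% (31.3% to 63.6%). When all windows were ranked by GC content and cut into 5 classes of equal size, 180, 195, 108, 16 and 1 dense windows fell into them from the lowest to the highest. Over all windows, however, the mean FOXA1 count was 5.32, 7.63, 7.40, 5.48 and 2.65 in these classes, so the GC-poorest class was not the one richest in FOXA1 peaks.

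HNF4A followed GC content in the opposite direction. Its mean over all windows rose through the 5 classes as 0.173, 0.580, 1.14, 1.81 and 3.33 peaks per window. In the dense windows of the first 4 classes it was 0.95, 1.82, 2.92 and 4.75. In each of these classes the dense windows therefore held more HNF4A peaks than windows of similar GC content, although their overall mean was only 1.31-fold higher. By these means they were 5.49-fold, 3.13-fold, 2.55-fold and 2.63-fold above all windows of the class. FOXA1nhaa averaged 17.4, 16.8, 15.5 and 11.6 peaks in the same dense windows and 3.62, 5.28, 5.12 and 3.73 in all windows of the class, or 4.80-fold, 3.19-fold, 3.02-fold and 3.12-fold. Within the 4 classes the multiples of HNF4A and FOXA1nhaa were thus closer to each other than their overall 1.31-fold and 4.25-fold. The same higher HNF4A mean in dense windows was found when each class was divided by the presence of a protein-coding transcription start. Among windows of the lowest class without a start, 74 dense windows averaged 0.608 and the other windows 0.106. Among windows of the third class with a start, 96 dense windows averaged 3.06 and the others 1.58. No dense window without a start lay in the 2 GC-richest classes.

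**Figure D3:**
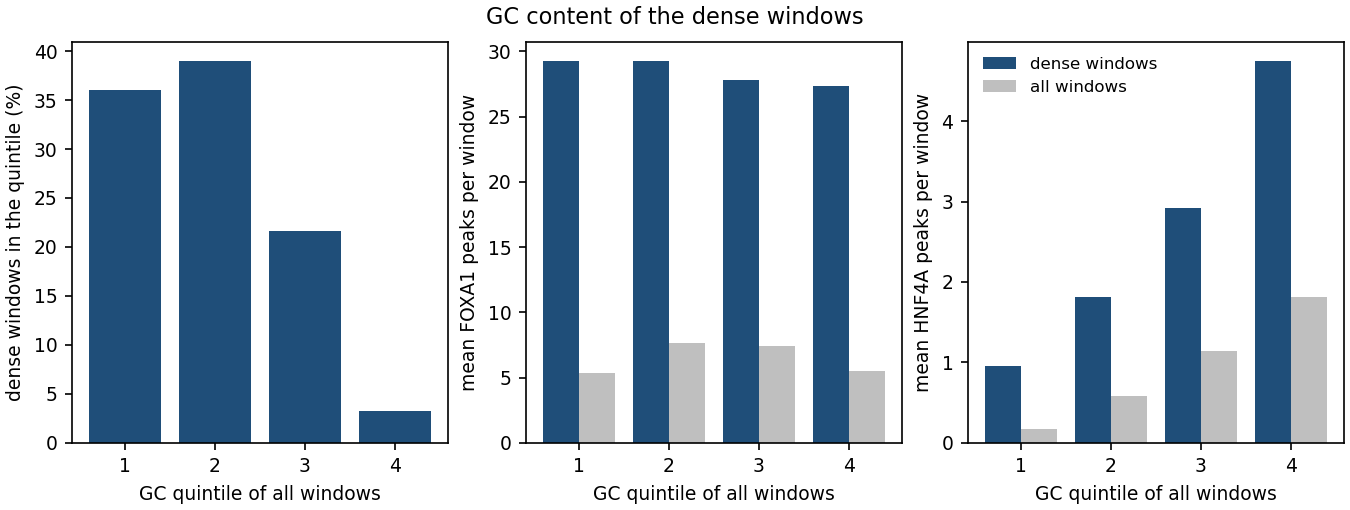
Share of the dense windows (left), mean FOXA1 peaks per window (middle) and mean HNF4A peaks per window (right) in the first 4 of 5 equal classes of all windows by GC content (horizontal axis, 1 the GC-poorest); the highest class is left out because it held 1 dense window. HNF4A means rose from 0.95 to 4.75 in dense windows and from 0.173 to 1.81 in all windows.

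The dense windows lay in genes. A protein-coding gene body reached into 497 of them, or 99.4% (98.3 to 99.8), where 66.4% of all windows had one. A protein-coding transcription start lay in 379, or 75.8% (71.9 to 79.3), where 47.8% of all windows had one. Gene bodies covered 87.1% of their bases and 46.5% of the known bases of all windows. The next 500 windows by FOXA1 count were similar, with 475 that had a gene and 358 that had a start. The 3 dense windows without a protein-coding gene were rank 163 at chr7:85100001-85200000 (30 FOXA1, 6 FOXA1dbd, 12 FOXA1nhaa and 0 HNF4A peaks), rank 283 at chr4:112400001-112500000 (27, 6, 13 and 2) and rank 348 at chr9:21500001-21600000 (26, 3, 16 and 3).

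The peaks in them were mostly intronic. Of the FOXA1 peaks in dense windows 84.6% (84.0 to 85.2) had their midpoint in an intron of a protein-coding gene, against 57.8% (57.5 to 58.0) elsewhere. Exons held 7.41% (7 to 7.85) against 5.68% (5.56 to 5.81). Outside every annotated gene lay 5.15% (4.80 to 5.53) against 23.8% (23.6 to 24). Within 1000 bp of a protein-coding transcription start lay 3.60% (3.31 to 3.92) against 2.76% (2.68 to 2.85), and 2.84% over all FOXA1 peaks. The median distance to such a start was 22999 bp in dense windows and 34584 bp elsewhere. Few of the peaks of dense windows thus lay at promoters by this measure.

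Counted per gene and not per base, genes of 200 to 500 kb were the length class that most often had a start in a dense window. The same class most often had a body that reached into one. Of 19229 protein-coding genes on these chromosomes 492 had a start in a dense window, or 2.56%, and 663 had a body that reached into one, or 3.45%. The share with a start in a dense window was 0.761% (0.593 to 0.977) for genes under 20 kb. It was 3.78% (3.16 to 4.52) for genes of 50 to 100 kb and 6.68% (5.68 to 7.83) for genes of 100 to 200 kb. For genes of 200 to 500 kb it was 8.33% (6.85 to 10.1). For the 310 genes over 500 kb it was 2.58% (1.31 to 5.01). The share whose body reached into a dense window was 9.34% (8.16 to 10.7) for genes of 100 to 200 kb. It was 11.7% (9.95 to 13.7) for genes of 200 to 500 kb. For genes over 500 kb that share was 6.45% (4.21 to 9.75), against 3.45% of all genes. A longer gene spans more windows and so has more windows in which to be counted. The part of this span in the shares was not tested. The median FOXA1 density of gene bodies was 8.23 peaks per 100 kb for genes of 100 to 200 kb. It was 7.63 for genes of 200 to 500 kb and 3.61 for genes over 500 kb. The median length of genes that reached into a dense window was 104 kb, and of all genes 27.6 kb.

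NEGR1 reached into the most dense windows, 9 of the 10 it touches, with 316 FOXA1, 138 FOXA1nhaa, 21 FOXA1dbd and 0 HNF4A peaks in 887 kb. DPYD, the enzyme that starts pyrimidine breakdown, reached into 5 dense windows, with 215 FOXA1 and 3 HNF4A peaks in 917 kb. ASCC3, the receptor phosphatase gene PTPRK, DST, SLIT2 and the bromodomain gene BAZ2B reached into 4 each. ASCC3 had 163 FOXA1 peaks in its 373 kb, or 43.7 per 100 kb, the highest density of the 20 genes that reached into the most dense windows. SLIT2 encodes a secreted guidance protein and had 116 FOXA1 peaks, and ROBO1, the gene of its receptor, had 168 and reached into 3. These densities were chosen by the FOXA1 count and are a description.

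Also with 3 dense windows were VPS13B, the Mediator subunit gene MED13L, the autophagy gene WDFY3, PDLIM5, COL5A2, COL11A1, LMO7 and MKLN1. RBMS3, a gene entry that overlaps it (ENSG00000283563), NBEA and NAV3 reached into 2 each. FOXA1 density in the 20 genes ran from 12.1 to 43.7 peaks per 100 kb. HNF4A had 0 peaks in NEGR1, ASCC3 and NAV3 and 23 in DST.

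Lists of genes were set beside the windows, and the count of each is read against the 2.56% of all protein-coding genes. Of 40 collagen genes 5 had a start in a dense window, or 12.5% (5.46 to 26.1). They were COL11A1 (26 FOXA1 peaks in the window with its start), COL3A1 (38), COL5A2 (34), COL12A1 (33) and COL17A1 (29). COL17A1, the collagen of epithelial hemidesmosomes, had 1 FOXA1 peak in its own body, and its window is shared with SLK. COL3A1 had 23 peaks in its 38.4 kb. The median collagen gene had 2.89 FOXA1 peaks per 100 kb of body and the median protein-coding gene 2.271, so most collagen genes were not dense.

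Of 38 other genes of the fibroblast matrix 5 had a start in a dense window, or 13.2% (5.75 to 27.3). LOX, the collagen cross-linking enzyme, lay in a window with 28 FOXA1, 9 FOXA1dbd and 4 HNF4A peaks. P4HA1, a subunit of collagen prolyl hydroxylase, lay in 1 with 35 FOXA1, 5 FOXA1dbd and 10 HNF4A peaks. LUM and DCN, small proteoglycans of the collagen matrix, shared a window with 28 FOXA1, 8 FOXA1dbd and 1 HNF4A peak. FBN1, the fibrillin of microfibrils, had its start in a window with 27 FOXA1, 7 FOXA1dbd and 6 HNF4A peaks.

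Of 32 integrin and laminin genes 3 had a start in a dense window, or 9.38% (3.24 to 24.2). They were LAMC1, a laminin gamma chain (29 FOXA1 and 5 FOXA1dbd peaks in the window), ITGAV (35 and 7) and ITGB1 (34 and 18), and ITGA2 reached into 1 without a start there. Receptor tyrosine kinase and growth factor genes gave 3 of 38, or 7.89% (2.72 to 20.8), namely the ligands FGF5 (24 FOXA1 peaks), PDGFC (31) and FGF7 (27), and VEGFC reached into 1. The AP-1 and TEAD-YAP list gave 2 of 24, or 8.33% (2.32 to 25.8), the co-activators VGLL3 (29) and YAP1 (26). Focal adhesion and actin genes gave 2 of 39, or 5.13% (1.42 to 16.9), PDLIM5 (44) and PTK2 (26), the focal adhesion kinase, and VCL, vinculin, reached into 1.

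The TGF-beta pathway gave 1 of 30, SMURF2 (32), a ubiquitin ligase of the pathway, and fibroblast identity transcription factors gave 1 of 35, TCF4 (33), with MEIS1 reaching into 1. These shares were 3.33% (0.591 to 16.7) and 2.86% (0.506 to 14.5). None of 49 genes of liver function had a start in a dense window, an interval of 0 to 7.27%. None of 59 cytosolic ribosomal protein genes did (0 to 6.11%), and none of 30 neuronal adhesion and channel genes (0 to 11.4%), of which GRIK2 reached into 1. NEGR1 is not in that list.

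Gene length differed between the lists and its part was not tested. The median length was 125 kb for collagens, 42.4 kb for other matrix genes, 14.9 kb for liver genes, 5.55 kb for ribosomal protein genes and 690 kb for neuronal genes. The lists were drawn up with earlier results of these data known, and all intervals are for counting error over few genes.

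**Figure D4:**
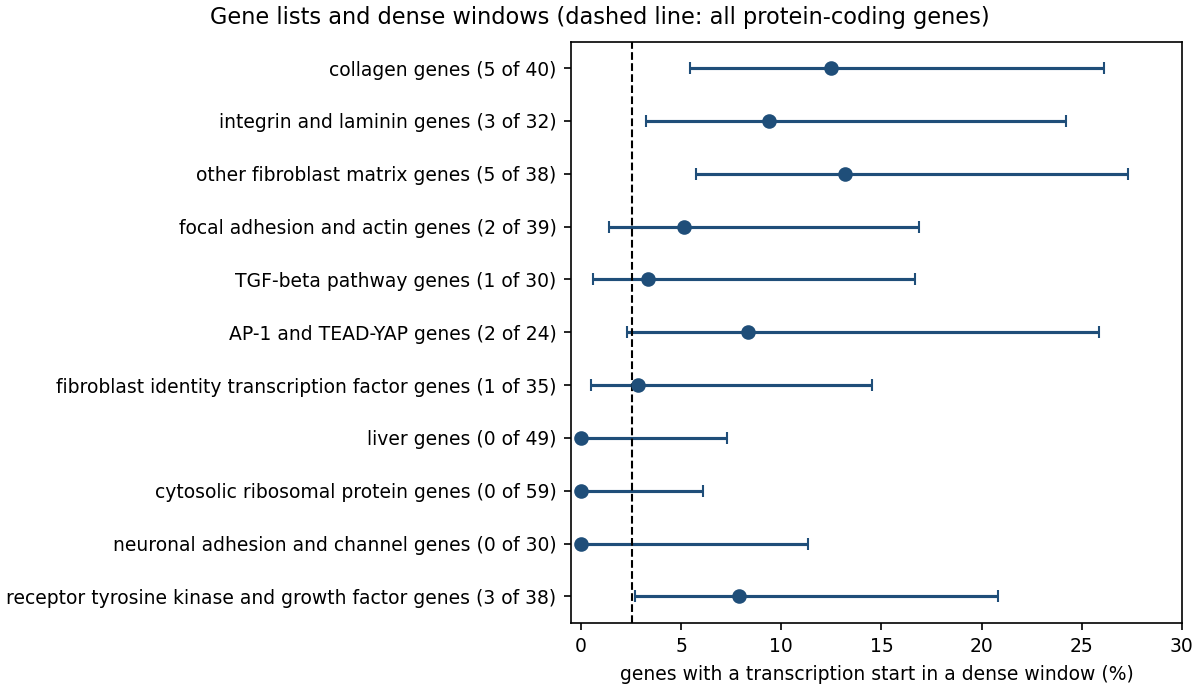
Percent of the genes of each list with a transcription start in a dense window (horizontal axis; points, with 95% Wilson intervals as bars), the number of genes in brackets, and the share of all protein-coding genes, 2.56%, as a dashed line. Matrix genes reached 13.2% and collagens 12.5%. The liver, ribosomal and neuronal lists had none, with intervals that include 2.56%.

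The dense windows were spread unevenly over chromosomes. Chromosome 2 held 68, chromosome 1 held 59 and chromosome 4 held 49, which were 2.85%, 2.61% and 2.61% of their windows. Chromosome 19 held 0 of its 559 windows, and its highest FOXA1 count was 18. That chromosome had a mean GC content of 48.4%, 1.76 FOXA1 and 3.12 HNF4A peaks per window. Chromosomes 16, 20, 21 and 22 held 3, 2, 2 and 2 dense windows.

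Many dense windows stood alone. The 500 fell into 406 runs of adjacent windows, of which 339 were single, and 161 dense windows had a dense neighbour. The longest run was 9 windows in NEGR1, chr1:71900001-72800000, with 308 FOXA1, 133 FOXA1nhaa, 20 FOXA1dbd and 0 HNF4A peaks. Next came 6 windows at chr2:160100001-160700000, from WDSUB1 through BAZ2B and MARCHF7 to LY75, with 171 FOXA1, 93 FOXA1nhaa, 24 FOXA1dbd and 9 HNF4A peaks. Of the 3 runs of 4 windows, the one with the most FOXA1 peaks lay at chr6:100900001-101300000, SIM1 and ASCC3, with 158 FOXA1, 83 FOXA1nhaa, 32 FOXA1dbd and 6 HNF4A peaks. In the NEGR1 run the 20 FOXA1dbd peaks for 308 FOXA1 peaks were few beside the 32 for 158 at ASCC3.

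Around the dense windows the density fell off with distance. At 100 kb on either side the mean FOXA1 count was 15.7 and 15.9, 2.76-fold and 2.79-fold of the mean over all windows. With dense neighbours left out it was 12.4 on both sides. At 300 kb it was 1.68-fold and 1.83-fold, and at 1000 kb 1.34-fold and 1.36-fold. FOXA1nhaa, at 2.48-fold and 2.50-fold at 100 kb and 1.35-fold and 1.42-fold at 1000 kb, took much the same course. HNF4A was 1.28-fold and 1.24-fold at 100 kb and 0.87-fold at 1000 kb on both sides. The mean GC content was 37.4% in the dense windows and 39.3% and 39.2% in their neighbours.

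**Figure D5:**
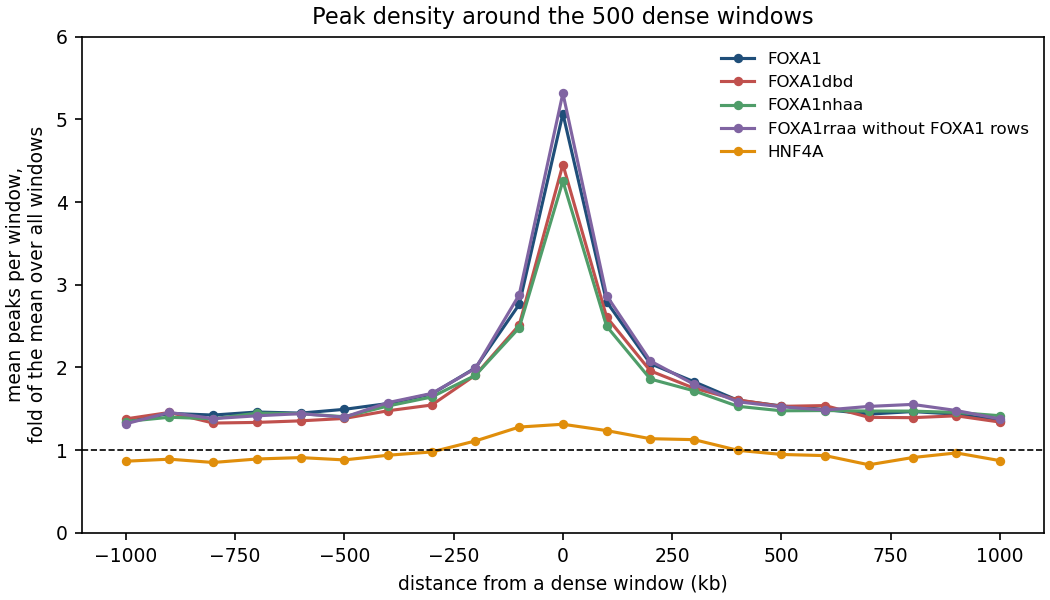
Mean peaks per window of each list as a multiple of its mean over all windows (vertical axis) against the distance from a dense window in kb (horizontal axis, 0 being the dense windows themselves). FOXA1, which chose the windows, stood at 5.07-fold at 0 and 2.76-fold to 2.79-fold at 100 kb; the variants took the same course and HNF4A stayed between 0.82-fold and 1.31-fold.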

How the data were processed

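ChIP-seq peak lists of 5 HALO-tagged constructs in BJ fibroblasts were analysed, 1 deposited list per construct and a down-sampled FOXA1 list. The score of each peak and, for all lists but FOXA1, its fold enrichment (a ratio), −log10 p-value and −log10 q-value are the authors' own and were deposited in files without headers. Only the score, positions and names entered the results given here. The submitters' processing notes name Bowtie2 2.3.4.1, Picard, GATK 4.2.6.0, bedtools 2.27.1, MACS2 2.2.7.1, deepTools 3.5.0 and hg19. Whether peaks were called per library or on pooled libraries, and how inputs were used, is not given in the sources used here. The lists give no read counts, so depth is unknown. The histone H2B samples and the inputs were not analysed here.

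Rows with the same coordinates were counted as 1 peak, and a peak was placed by its midpoint. Windows, motifs and genes were taken from GRCh37 and the GENCODE 44 annotation lifted to it. Peaks overlapped when they shared at least 1 bp. FOXA1rraa rows with the coordinates of a FOXA1 row and its name prefix were counted as FOXA1 rows. Shares have 95% Wilson intervals. Calculations used Python 3.11.15, numpy 2.4.6, pandas 2.3.3, scipy 1.17.1 and pysam 0.24.0. When tested on simulated data, the code recovered all 500 planted windows and all 500 planted cores. The planted windows stood far above the rest and the cores lay in sequence of C and G only. The test therefore checked the code and says nothing of the tie at the edge of the group.

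Windows were named by a rule: the 15 densest, the last chosen and the first 3 missed, the 3 longest runs, and the 5 with the most, and up to 5 with none, of HNF4A, FOXA1dbd and FOXA1nhaa peaks. Genes were named if they overlapped such a window, were among the 20 that reached into the most dense windows, or were list genes with a start in a dense window. The windows, gene lists, motifs and rules were chosen with earlier results of these data known. 1 window that the rule names is not reported here. Other settings tried are given in the closing section.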

Additional observations from a re-analysis of the deposited data

How the results depend on the processing

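Of 84 values under other settings, 46 stayed within the counting interval of the value reported and 38 moved beyond it. Where the value reported stood apart from its background beyond the counting interval, 1 of the 84 changed side of the background taken under the same setting, HNF4A at 3 times the mean, given below. No paired analysis was possible because a construct is represented by a single list, which also left no replicate to omit. With windows chosen on the down-sampled list, the shares of peaks in dense windows were 6.85% for FOXA1dbd, 6.60% for FOXA1nhaa and 7.97% for FOXA1rraa. The overlaps were 45.0% for FOXA1nhaa and 43.7% for FOXA1rraa, against 39.7% and 39.8% elsewhere. With windows chosen on the top 50% of FOXA1 peaks by score, 7.67% of FOXA1nhaa peaks lay in them. The overlaps were then 16.7% for FOXA1dbd, 48.0% for FOXA1nhaa and 46.8% for FOXA1rraa, against 17.6%, 39.3% and 39.4% elsewhere. With FOXA1 rows joined by name, the overlaps were 16.7%, 48.2% and 45.9% in the same order, against 18.2%, 39.9% and 40.1% elsewhere. FOXA1rraa without rows of the FOXA1 list gave 9.88% in dense windows and an overlap of 30.8%. Requiring 50% of the shorter peak gave 43.7% (FOXA1nhaa), 43.3% (FOXA1rraa) and 0.810% (HNF4A), against 37.2%, 38.6% and 1.13% elsewhere. Midpoints within 200 bp gave 14.0% (FOXA1dbd), 36.8% (FOXA1nhaa), 38.0% (FOXA1rraa) and 0.769% (HNF4A), against 16.6%, 33.4%, 35.8% and 1.16% elsewhere. In the central 100 bp 9.89% of peaks had a forkhead core (elsewhere 10.1%). Within 2500 bp of a start lay 9.12% of peaks (elsewhere 7.24%), and within 1000 bp of a start of any annotated gene 11.2% (elsewhere 8.66%).

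With the 250 densest windows, the FOXA1nhaa overlap was 47.7%, against 39.7% elsewhere. Of these windows 87.6% had at least 2 times the FOXA1dbd mean and 100% at least 2 times the FOXA1rraa mean. With the 1000 densest, 74.8% had it for FOXA1dbd and 96.8% for FOXA1nhaa, and 97.2% reached a protein-coding gene. At 3 times the mean the shares were 64% (FOXA1dbd), 88% (FOXA1nhaa), 95.4% (FOXA1rraa) and 8.40% (HNF4A, below the 8.8% of all windows). Against the mean of windows with a FOXA1 peak they were 92.8%, 95.4% and 15% for FOXA1nhaa, FOXA1rraa and HNF4A, against 8.19%, 8.9% and 13.3% of all windows. All 500 dense windows, or 100%, reached an annotated gene of any kind, against 91.3% of all windows. A stricter rule or a narrower span gives lower values by construction, and the cause of the other moves was not tested.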

Other observations

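A peak and a window outside the naming rule were picked after their values were seen. The highest FOXA1 score in the dense windows, 1177, belonged to a peak in KANSL1, a gene of a histone acetyltransferase complex, 3809 bp from the nearest protein-coding transcription start. It had no forkhead core in its central 200 bp and was overlapped by all 3 variants, FOXA1rraa counted without rows of the FOXA1 list. Its window, rank 204, held 29 FOXA1, 7 FOXA1dbd, 16 FOXA1nhaa and 5 HNF4A peaks.

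A window in the histone gene cluster of chromosome 6, rank 234 (chr6:26100001-26200000), was the dense window with the most protein-coding genes, 11, among them H2BC4, H4C3 and H1-4. It held 28 FOXA1, 6 FOXA1dbd, 7 FOXA1nhaa and 6 HNF4A peaks at a GC content of 41.6%. Its FOXA1nhaa count was below the lower quartile of the dense windows, 13.8, and its HNF4A count above their upper quartile, 3.

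Within the dense windows, HNF4A peaks were more frequent where genes started. Windows without a protein-coding transcription start averaged 0.860 HNF4A peaks (121 windows), those with 1 averaged 2.03 (279) and those with 2 or more 2.54 (100). The FOXA1 means of the same groups were 29.4, 28.8 and 28.5, and the FOXA1dbd means 4.55, 4.74 and 5.04. Over all windows, HNF4A averaged 0.538, 1.73 and 3.33 in these groups.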
